A study of Homo sapiens with 10 samples.

Results

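The genes described here are the expressed members of the ZNF family in Meg01, a human megakaryoblastic leukaemia cell line. They were taken from the deposited array values as all genes whose platform symbol is ZNF followed only by digits. Each gene was represented by its brightest probe and kept if the mean of that probe's log2 deposited intensity over the 10 arrays was at least 8.0. This left 159 genes of 443 with a ZNF symbol, or 35.9%, among 20046 named genes on the array. Because the members were chosen by their measured mean level, that level is given as a description only, while the differences between RNA pools and hairpins were not used to choose them.

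Most ZNF genes encode C2H2 zinc finger proteins, in which each finger folds around a zinc ion and several fingers in a row read a DNA sequence. The largest class joins the fingers to a KRAB domain, which recruits the scaffold TRIM28 and the histone methyltransferase SETDB1 to silence chromatin, often at transposable elements. Many of these genes lie in clusters of related copies on chromosome 19, and blood progenitors use several of them as lineage regulators.

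The study asked how loss of ataxin-2, an RNA-binding protein encoded by ATXN2, alters the loading of mRNAs on ribosomes. The Meg01 cells, grown with 10% serum, received lentivirus at a multiplicity of infection of 10 carrying either the hairpin sh95 against ATXN2 or the control hairpin shc002. GFP-positive cells were collected after 48 hours, and their lysate was separated on a sucrose gradient from 7% to 46%. All 4 groups therefore carry a virus, GFP and a hairpin, and all come from a single leukaemic line.

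The control hairpin gave 2 arrays of subpolysomal RNA (fractions 1 to 8) and 3 of polysomal RNA (fractions 9 to 17), and so did the knockdown. A count of 8 polysomal fractions also appears in the series' text, while 9 to 17 make 9. The subpolysomal arrays are numbered P1 and P3 and the polysomal ones P2, P4 and P5, so that a control and a knockdown array share every number and the pools share none. The labels speak of 3 experiments, and which of the 5 numbers belongs to which of them is unknown here. A batch tied to a number can therefore not be told apart from the pool when polysomal and subpolysomal arrays are compared. Where arrays of a group do not come from separate cultures, p-values measure technical spread only.

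All values below are log2 intensities after quantile normalization over the 10 arrays, and all differences are on that log2 scale. A difference between pools is relative to the other probes on the array and is not the share of an mRNA on ribosomes. In pooled RNA, fewer cells with a transcript and less transcript per cell cannot be told apart. The median probe read 193.1 to 194.3 intensity units, depending on the array, and from 18512 to 20184 probes exceeded background. The control polysomal P2 array reached an intensity of 140375, against 11164 to 38625 as the highest value elsewhere. ATXN2 read lower in the knockdown in 5 of 5 pairs (-0.32, -0.50, -1.20, -2.09 and -1.04 for P1 to P5 in turn), although no comparison called it in the limma fit (adjusted p = 1 in each pool). Listed genes counted as measured if above background on at least 2 arrays. Of 12 megakaryocyte markers on the array 10 were measured, and 6 were above background on all arrays. These counts were 10, 10 and 8 for the erythroid markers and 9, 6 and 1 for the monocyte and granulocyte ones. For the lymphoid markers they were 6, 6 and 0.

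Among the members, 154 of 159 were above background on all 10 arrays and the remaining 5 on at least 8. All 159 matched a protein-coding gene of the same symbol in RefSeq. On chromosome 19 lay 81 members, or 50.9%, close to the 50.1% of all ZNF genes and far from the 5.79% of other genes at the same level. Just inside the threshold were ZNF557 (8.008), ZNF384 (8.007), known for leukaemia fusions, and ZNF562 (8.007). Just outside were ZNF407 (7.996), ZNF484 (7.983) and ZNF224 (7.973). The 10 brightest probes belonged to ZNF674, ZNF430, ZNF428, ZNF146, ZNF581, ZNF549, ZNF14, ZNF593, ZNF207 and ZNF394, with ZNF674 at a mean of 13.36, but brightness differs between probes and does not rank the RNAs. Over 1 probe was present for 54 members, and in 22 of them the brightest exceeded the second by more than 1 log2 unit.

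Start-site sequence was available for 136 of the 159 members in the RefSeq promoter table of GRCh38.p14, which holds 250 bases before and 50 after a gene's start. The sequences shown belong to the members whose polysomal arrays all lay on one side of their subpolysomal arrays, described next, as far as the table holds them. Each line gives 20 bases before the start in lower case and the first 10 transcribed bases in capitals. For ZNF580 the first of 3 listed starts was used. Those with lower polysomal arrays come first, at chr19:7516083-7516112 (ZNF358), chr19:55640982-55641011 (ZNF580) and chr19:57769656-57769685 (ZNF586), all on the plus strand.
ZNF358: cgctgcggccctcggccggcCCCTCTCGCT
ZNF580: ctcgcgcgcttccggccggcGCCTTTTCCC
ZNF586: tagccgtggcagccattttgGCCTGTCAGG
Those with higher polysomal arrays lie at chr17:32350137-32350166 (ZNF207, plus strand), chr7:149239631-149239660 (ZNF212, plus strand) and chr16:30787196-30787225 (ZNF629, minus strand).
ZNF207: gcggagcggggaacgaggccGTCGGCCATT
ZNF212: ccggggaggtcgctgctcccAGAATGCACC
ZNF629: gggcccgggaagctggggtcACTTCCTGCT

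ZNF358 is the only one of these 6 whose annotated transcript opens with C and 4 further pyrimidines, the form of a TOP mRNA start. That form occurred in 5 of 136 members (3.68%), in 6.44% of 5591 other genes at the same level and in 4.04% of all 27305 genes in the table. Here and below, only the first listed start of each gene was used. Within the 300-base windows of these 6 genes, GC content ran from 59.3% for ZNF207 to 76.3% for ZNF358. The median over member windows was 62.2%, against 65.3% for the other genes at the level and 58.3% for all windows.

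Motifs were counted on both strands of the same windows as plain letter matches. The ETS site CCGGAAG was found in 55 of 136 member windows (40.4%), against 21.6% of windows of other genes at the level and 10.7% of all windows. The CCAAT box, searched as CCAAT, was in 51.5% of member windows, against 38.2% and 35.7%. The TATA box, searched as TATAAA, was in 1 member window (0.735%), against 5.6% and 12%. The GC box GGGCGG was in 68.4% of member windows, against 71.8% and 44.6%. The YY1 site AAGATGG was in 9.56%, against 8.91% and 6.06%, and the NRF1 site GCATGCGC in 4.41%, against 6.28% and 3.27%. Matches may overlap, and an ETS and a YY1 match can share the letters AAG. Of the 6 windows shown in part above, ZNF580 and ZNF586 held an ETS site, and ZNF212 and ZNF629 held no match to any of the 6 motifs.

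The comparison of polysomal with subpolysomal RNA asks which ZNF transcripts were relatively richer in the ribosome-loaded pool. ZNF358, a chromosome 19 zinc finger gene, was lower in polysomal RNA, and it was the only member called. On the subpolysomal arrays it read 9.75 and 9.62 in control cells and 9.10 and 9.53 in knockdown cells. On the polysomal arrays it read 8.36, 8.24 and 8.33 in control cells and 8.16, 8.19 and 8.46 in knockdown cells. Every polysomal array lay below every subpolysomal one, by at least the gap from 8.46 to 9.10. Averaged over both hairpins the difference was -1.21 (SE 0.10, n = 6 against 4 arrays, limma adjusted p = 0.00527). In control cells alone it was -1.37 (SE 0.14, n = 3 against 2, adjusted p = 0.0432), and in knockdown cells -1.05 (SE 0.14, adjusted p = 0.0643).

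With the P number as a block the same differences of ZNF358 had adjusted p = 0.0553 for the mean of both hairpins and 0.0842 in control cells, so neither was called. The mean over hairpins passed the threshold without any 1 array (adjusted p 0.0108 to 0.0296), whereas the control difference passed only without either knockdown subpolysomal array (0.038 each time) and missed it without any other (0.0825 to 0.273). Over all probes, 1.16% were called for the mean of both hairpins, 0.128% in control cells and 0.159% in knockdown cells. The members' counts were 1, 1 and 0 of 159 (0.629% for 1 gene). At an unadjusted p under 0.05 the members' shares were 10.1% for the mean, 4.4% in control and 8.81% in knockdown cells, against 11.3%, 5.63% and 7.68% of all probes. By unadjusted p the members' shares were thus near those of all probes, while the adjusted counts rest on 1 gene. Of the 26486 tested probes 11434 were above background on all arrays, against 154 of 159 members. When those 11434 alone were tested, 331 were called for the mean of both hairpins, and the members called there are named below.

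**Figure D1:**
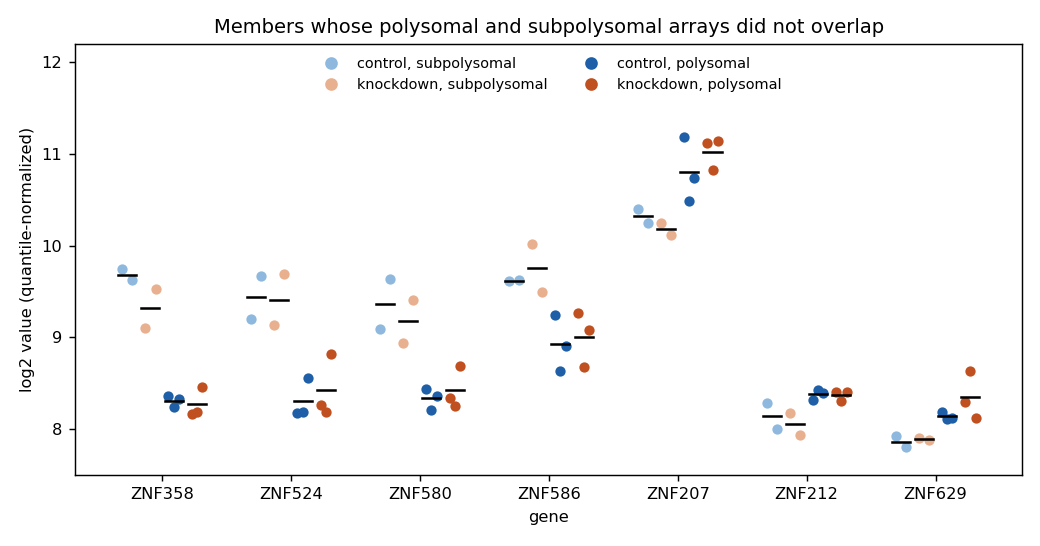
Log2 values of 7 ZNF genes on each of the 10 arrays, coloured by hairpin and pool, with a bar at each group mean. ZNF358, ZNF524, ZNF580 and ZNF586 read lower on all 6 polysomal arrays than on any subpolysomal array, and ZNF207, ZNF212 and ZNF629 read higher.

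Besides ZNF358, all 6 polysomal arrays lay below all 4 subpolysomal arrays for ZNF524, ZNF580 and ZNF586, which makes 4 of 159 members (2.52%) against 3.22% of all probes. ZNF524 read 9.20 and 9.67 (control) and 9.13 and 9.69 (knockdown) in subpolysomal RNA. In polysomal RNA it read 8.17, 8.18 and 8.56 (control) and 8.26, 8.18 and 8.82 (knockdown). The highest polysomal value, on the knockdown P5 array, stayed below the lowest subpolysomal one. The difference was -1.06 (SE 0.19, adjusted p = 0.0586), which missed the threshold, and the adjusted p was 0.0413 when probes above background on all arrays alone were tested.

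ZNF580 read 9.09 and 9.64 (control) and 8.94 and 9.41 (knockdown) in subpolysomal RNA. In polysomal RNA it read 8.44, 8.21 and 8.36 (control) and 8.34, 8.25 and 8.69 (knockdown). Again the knockdown P5 array was the highest of the polysomal pool. The difference was -0.89 (SE 0.15, adjusted p = 0.0537), with an adjusted p of 0.043 among probes above background on all arrays. A second ZNF580 probe with a mean of 7.69 gave -0.06.

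ZNF586, a KRAB gene, read 9.61 and 9.62 (control) and 10.02 and 9.49 (knockdown) in subpolysomal RNA. Its polysomal arrays read 9.24, 8.63 and 8.90 (control) and 9.26, 8.68 and 9.08 (knockdown). The P2 arrays were the highest of the polysomal pool in both hairpins. The difference was -0.72 (SE 0.17, adjusted p = 0.144), and its other 2 probes gave -0.48 and 0.06.

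The other members among the 8 lowest differences were not called, and their arrays overlapped. ZNF277 differed by -1.05 (SE 0.47, adjusted p = 0.481). Its P2 arrays read 10.08 and 10.50, inside the subpolysomal range of 9.81 to 10.54, while its P4 and P5 arrays read 8.35 to 8.88. Without the P2 arrays, a choice made after seeing the data, the difference was -1.59 (adjusted p = 0.0371), and ZNF524 and ZNF580 were not called. ZNF22 differed by -0.97 (SE 0.31, adjusted p = 0.285), and its second probe by -0.87. ZNF467 (-0.91, SE 0.47), ZNF581 (-0.89, SE 0.35) and ZNF511 (-0.79, SE 0.46) had adjusted p between 0.399 and 0.601.

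At the other end, all 6 polysomal arrays lay above all 4 subpolysomal arrays for 3 members (1.89%, against 2.29% of all probes). ZNF207, also named BuGZ, binds the checkpoint protein BUB3 and helps chromosomes attach to the spindle. Its subpolysomal arrays read 10.40 and 10.25 (control) and 10.25 and 10.12 (knockdown). Its polysomal arrays read 11.19, 10.49 and 10.74 (control) and 11.12, 10.82 and 11.14 (knockdown). The lowest polysomal array was the control P4 array, and the pools did not overlap. The difference was 0.66 (SE 0.14, adjusted p = 0.102), and a second probe of nearly the same brightness gave 0.90.

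ZNF212, a KRAB gene of chromosome 7, read 7.93 to 8.28 in subpolysomal and 8.31 to 8.42 in polysomal RNA, a difference of 0.28 (SE 0.07, adjusted p = 0.171). ZNF629 read 7.80 to 7.92 and 8.11 to 8.63, a difference of 0.36 (SE 0.10, adjusted p = 0.176). Both read close to the background threshold, which lay at 7.62 to 7.64 on these arrays before normalization.

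The 8 highest differences also held ZNF700, ZNF330, ZNF148, ZNF318, ZNF777, ZNF746 and ZNF598, none of them called (adjusted p 0.317 to 0.719). ZNF330, a nucleolar protein, differed by 0.77 (SE 0.40), and its second probe by 0.76. ZNF700 differed by 0.77 (SE 0.61), with polysomal P2 arrays at 11.37 and 10.45 and the other polysomal arrays between 8.72 and 9.32. ZNF148, which binds GC-rich promoters, differed by 0.56 (SE 0.40), and ZNF746, a repressor degraded through parkin, by 0.53 (SE 0.18). ZNF318 (0.56, SE 0.43) and ZNF777 (0.55, SE 0.25) were similar in size.

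ZNF598 is the ubiquitin ligase that marks ribosomes stalled in collisions. It read 10.43 and 9.40 (control) and 10.50 and 9.32 (knockdown) in subpolysomal RNA, the P1 array being the higher in both. In polysomal RNA it read 10.31, 9.93 and 10.45 (control) and 11.21, 9.70 and 10.92 (knockdown). The arrays overlapped, the difference was 0.51 (SE 0.39, adjusted p = 0.711), and a much dimmer second probe gave 0.03. ZNF622 and ZNF593, counterparts of yeast factors that assemble the large ribosomal subunit, went in opposite directions. ZNF622 differed by 0.47 (SE 0.26, adjusted p = 0.583) and ZNF593 by -0.65 (SE 0.28, adjusted p = 0.455). ZNF622 was picked after its values were seen.

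Over all members the difference between pools was centred on 0. The median for the mean of both hairpins was 0.00 over 159 members, with 81 higher and 78 lower in polysomal RNA, against 0.14 over 6681 other named genes at the same level, of which 61.4% were higher. In control cells the medians were 0.00 and 0.11, and in knockdown cells 0.05 and 0.17. Over all probes tested, medians were 0.00 to 0.01. The 81 members of chromosome 19 had a median of 0.01 and the other 78 members one of -0.01.

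These medians depended on single arrays. In knockdown cells the members' median was -0.33 without the knockdown subpolysomal P3 array, 0.28 without the P1 one and -0.13 without the knockdown polysomal P2 array. For the mean of both hairpins it ranged from -0.16 to 0.15 when 1 array was left out. The distance to the other genes also moved: for that mean, the members' median was -0.15 against 0.08 without the P2 arrays, and 0.14 against 0.17 without the P1 and P2 arrays, both choices made after seeing the data.

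**Figure D2:**
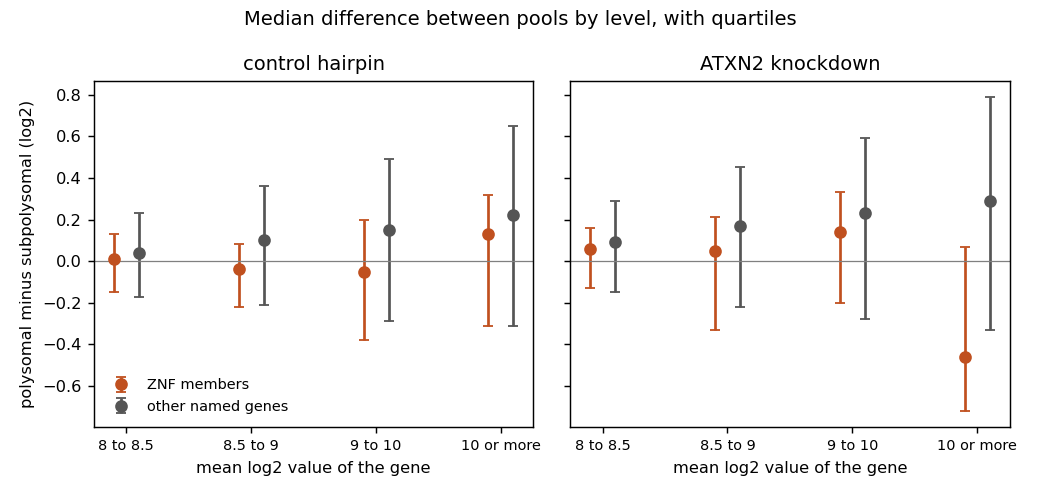
Median polysomal minus subpolysomal difference (log2) by the mean log2 value of the gene, for ZNF members and for other named genes, with bars from the lower to the upper quartile, in control and in knockdown cells. The members lie below the other genes in every bin, and the widest gap is at 10 or more in knockdown cells, -0.46 against 0.29.

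By level, the medians of members and other genes lay closest together from 8.0 to 8.5, where 78 members had 0.01 and 1975 others 0.04 in control cells. Among the 21 members at 10.0 or above, the median was 0.13 in control cells and -0.46 in knockdown cells, against 0.22 and 0.29 over 1685 other genes. In knockdown cells 14 of these 21 were lower in polysomal RNA. Without the P2 arrays the knockdown median of the members was -0.26, and without the P1 and P2 arrays it was 0.21. On log2 deposited values with no further normalization it was -0.71, against -0.01 over the other genes.

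**Figure D3:**
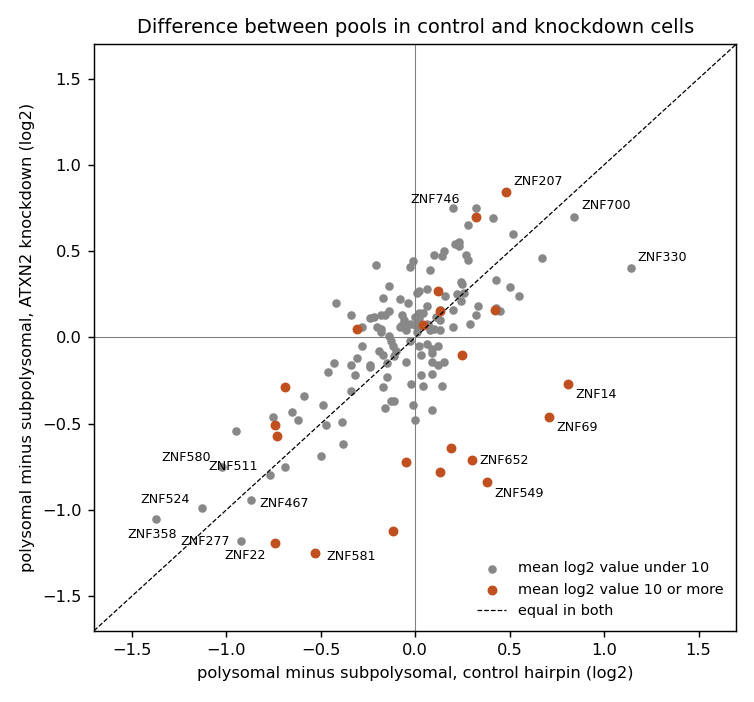
Polysomal minus subpolysomal difference (log2) of each of the 159 members in control cells (horizontal) and ATXN2 knockdown cells (vertical), with the line of equality. Control and knockdown arrays share P numbers in both pools. The bright members ZNF14, ZNF69, ZNF549 and ZNF652 lie below the line.

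The comparison of knockdown with control asks whether loss of ataxin-2 changed the members within a pool. No member was called in polysomal or in subpolysomal RNA by limma, and none had an unadjusted p under 0.05 in either. Over all probes 0% were called in both pools, and 1.53% and 0.861% had an unadjusted p under 0.05. This fit does not use the pairing of arrays by P number, so spread between numbers enters its SE. With the number as a block, 0 probes were called in either pool. The medians over the members were 0.08 in polysomal and 0.03 in subpolysomal RNA, against 0.04 and -0.00 over the other genes.

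In polysomal RNA the smallest p-values for higher knockdown values belonged to ZNF408, ZNF282 and ZNF609. ZNF408, a gene mutated in retinal vascular disease, read 8.19, 8.41 and 8.59 in control and 8.70, 8.5 and 8.86 in knockdown cells. The knockdown array was higher in each pair, but the groups overlapped, and the difference was 0.29 (SE 0.13, adjusted p = 1). ZNF282, which binds a retroviral repeat, read 8.19, 8.39 and 8.42 in control and 8.35, 8.67 and 8.85 in knockdown cells, again with overlap and a difference of 0.29 (SE 0.13, adjusted p = 1). ZNF609, the host gene of a circular RNA, differed by 0.34 (SE 0.15, adjusted p = 1).

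Towards lower knockdown values these were ZNF557, ZNF773 and ZNF69, all KRAB genes. ZNF557 read 8.16, 8.00 and 8.08 in control and 7.90, 7.88 and 7.92 in knockdown cells, without overlap, a difference of -0.18 (SE 0.08, adjusted p = 1). ZNF773 differed by -0.23 (SE 0.12, adjusted p = 1). ZNF69 differed by -0.81 (SE 0.55, adjusted p = 1), and its P2 pair alone by -2.25, against 0.02 and -0.20 in the P4 and P5 pairs.

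In subpolysomal RNA, with 2 arrays a group, the members so selected were ZNF557 (0.12, SE 0.10), ZNF652 (0.50, SE 0.45) and ZNF784 (0.09, SE 0.09) on the higher side. On the lower side they were ZNF358 (-0.37, SE 0.16), ZNF426 (-0.21, SE 0.16) and ZNF707 (-0.22, SE 0.16). All had adjusted p = 1. The differences of ZNF557, ZNF784 and ZNF707 changed sign without 1 of the 4 arrays.

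Knockdown values exceeded control values in all 5 pairs for 11 members (6.92%), against 3.73% of all probes. These were ZNF175, ZNF266, ZNF800, ZNF419, ZNF816, ZNF576, ZNF697, ZNF34, ZNF616, ZNF30 and ZNF433. For ZNF175, a KRAB gene, the pairs P1 to P5 differed by 0.34, 0.27, 0.37, 0.63 and 0.61 in turn. No pair stood apart. The difference was 0.50 (SE 0.55) in polysomal and 0.36 (SE 0.67) in subpolysomal RNA (limma adjusted p = 1 for both). That fit does not use the pairing, so its SE includes the spread between numbers. The control arrays alone ran from 9.11 to 10.67. ZNF419 differed by 1.30 in its P2 pair and by 0.01 to 0.12 in the others. Knockdown values were below control values in all 5 pairs for 0 members, against 2.84% of all probes. Both shares of all probes include many dim probes, and neither was counted over other genes at the same level. The P5 pair leaned most to one side, with 122 of 159 members higher in the knockdown, against 4363 of 6681 other genes. The medians of this pair were 0.17 over the members and 0.14 over the other genes.

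The change of the pool difference with knockdown was not called for any member by limma, and 0% of all probes were called. At an unadjusted p under 0.05 there was 1 member, ZNF557 (0.629%), against 1.13% of all probes. Its change was -0.30 (SE 0.13, adjusted p = 1). The other members with the smallest p were ZNF282 (0.44, SE 0.21), ZNF408 (0.37, SE 0.20) and ZNF358 (0.33, SE 0.20) upwards and ZNF652 (-1.01, SE 0.58) and ZNF773 (-0.31, SE 0.18) downwards, all with adjusted p = 1. ZNF652, which binds the corepressor CBFA2T3, read 10.27 and 9.72 (control) and 10.96 and 10.04 (knockdown) in subpolysomal RNA. In polysomal RNA it read 10.15, 10.60 and 10.13 (control) and 9.32, 10.47 and 9.58 (knockdown). The knockdown arrays were thus higher in both subpolysomal pairs and lower in all 3 polysomal pairs. This pattern was seen in 8 members (5.03%), against 3.45% of all probes, and its opposite in 8 (5.03%), against 3.95% of all probes. The members' median change was 0.07, and that of the other genes 0.06.

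The largest part of the members' variation followed the P number. Within pools the number accounted for 73.8% of the members' summed variance over arrays, the pool for 13.5%, the hairpin for 2.47%, hairpin by pool for 2.97% and the rest for 7.31%. For the other genes the number within pools accounted for 63.9% and the pool for 22.5%. These shares are not scaled by the number of levels of each term. The P number has 5 levels, more than the pool or the hairpin, so it can take up more variance. The members' median on the P1 arrays was 8.74 (control) and 8.87 (knockdown), and on the P3 arrays 8.25 and 8.23. On the polysomal arrays it was 8.70 (P2), 8.35 (P4) and 8.32 (P5) in control and 8.74, 8.40 and 8.46 in knockdown cells. P1 and P2 were thus the high arrays of their pools in both hairpins.

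**Figure D4:**
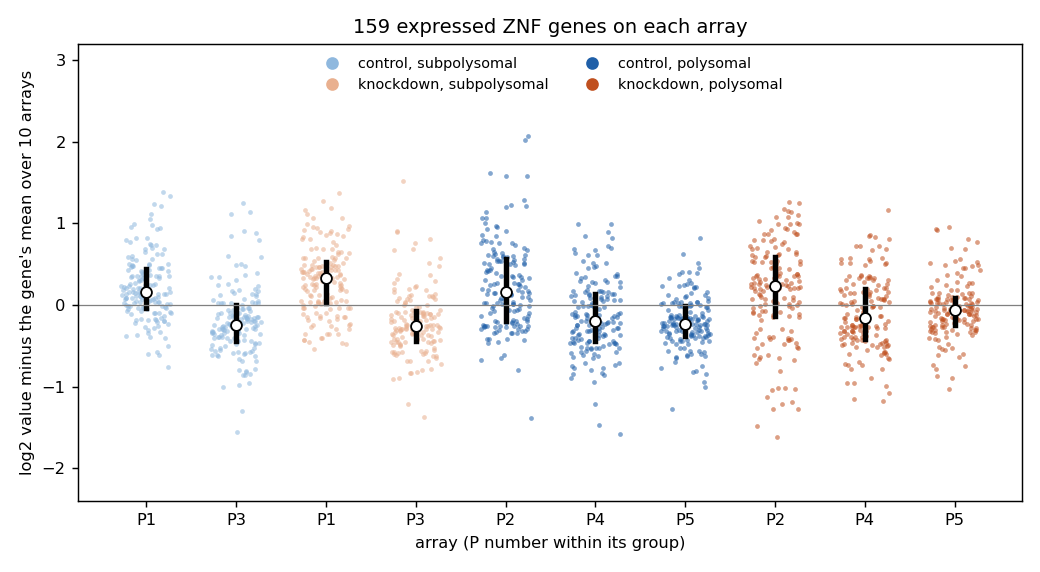
Log2 value of each of the 159 members on each array minus that gene's mean over the 10 arrays, as points coloured by hairpin and pool, with the median (open circle) and quartiles (bar). The P1 and P2 arrays have medians from 0.16 to 0.33, and the P3, P4 and P5 arrays medians from -0.26 to -0.07.

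Averaged over hairpins, P1 exceeded P3 by a median of 0.44, against 0.22 over the other genes. P1 was higher for 124 of 159 members (78%), against 62.5% of the other genes. P2 exceeded P4 by 0.42 and P5 by 0.44, against 0.19 and 0.11. It was higher than P4 for 65.4% and than P5 for 69.8% of members, against 58.3% and 56.3% of the other genes. P4 minus P5 had a median of -0.04. Both P1 arrays lay above both P3 arrays for 110 members (69.2%), against 33.8% of all probes, and both P3 arrays above both P1 arrays for 24 (15.1%), against 28.7%. Both P2 arrays lay above the other 4 polysomal arrays for 74 members (46.5%), against 17.2% of all probes. For P4 this count was 29 (18.2%, against 14.7%) and for P5 it was 11 (6.92%, against 8.13%). The shares of all probes include many dim probes, since 11434 of 26486 were above background on all arrays, against 154 of 159 members. These separations were not counted over other genes at the same level, so the size of the members' excess over such genes is not known. What sets P1 and P2 apart was not tested.

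ZNF146, made almost only of zinc fingers, shows the pattern. Its subpolysomal arrays read 12.30 (P1) and 10.69 (P3) in control and 12.52 and 10.64 in knockdown cells. Its polysomal arrays read 11.98 (P2), 10.03 (P4) and 10.42 (P5) in control and 12.11, 10.35 and 11.39 in knockdown cells. P1 and P2 arrays were the highest of their pools in both hairpins, while the difference between pools was -0.49 (SE 0.63, adjusted p = 0.842). ZNF274, a KRAB protein that brings SETDB1 to the 3′ ends of other ZNF genes, read 10.24 (P1) and 9.44 (P3) in control subpolysomal and 11.22, 9.48 and 9.20 (P2, P4 and P5) in control polysomal RNA. In knockdown cells it read 10.63 and 9.40, and 11.26, 9.52 and 9.71. ZNF302, another KRAB gene, had P1 above P3 by 1.73 and P2 above P4 by 1.76.

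**Figure D5:**
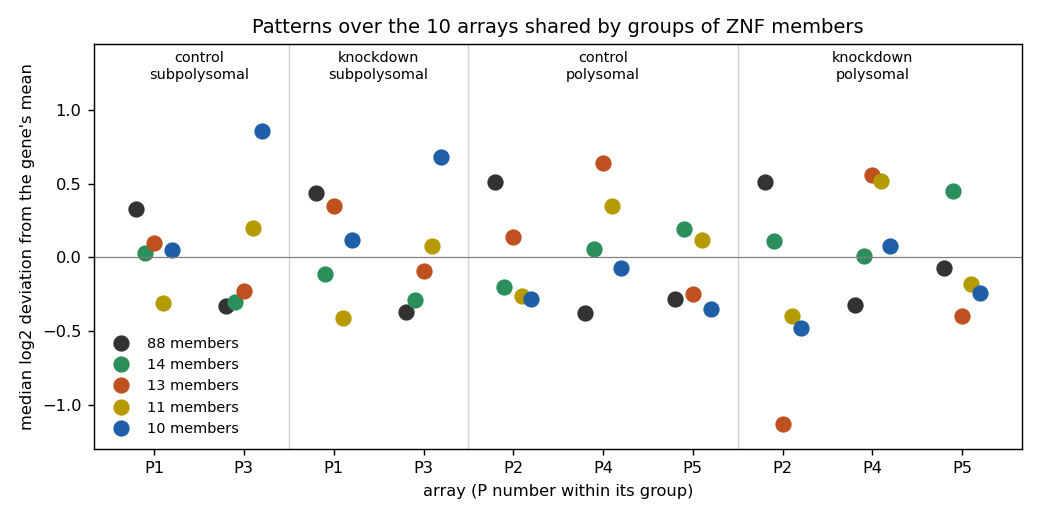
Median deviation (log2) from each gene's own mean on each array, for the 5 largest groups of members, with 88, 14, 13, 11 and 10 genes. The 88 members are high on P1 and P2, the 13 members are low on the knockdown polysomal P2 array at -1.13, the 11 members are low on P1 and P2, and the 10 members are high on both P3 arrays.

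Grouping the members by the correlation of their values over the 10 arrays (average linkage on 1 minus r, divided at 0.5) gave 14 groups, as a description made after the values were seen. The first held 88 members, among them ZNF146, ZNF302, ZNF175, ZNF274 and ZNF263, and 80 of the 88 had both P1 arrays above P3. A group of 14 with ZNF598, ZNF746, ZNF777, ZNF282, ZNF212 and ZNF521, a regulator of blood progenitors, had a median pool difference of 0.29. A group of 10 with ZNF358, ZNF524, ZNF580, ZNF581, ZNF467 and ZNF91, a KRAB repressor of SVA elements, had one of -0.82. Median deviations of the last were 0.86 and 0.68 on the P3 arrays and 0.05 and 0.12 on the P1 arrays.

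A group of 11 ran against the first on P1 and P2. It held ZNF410, ZNF148, ZNF395, ZNF444, ZNF579, ZNF275, ZNF264, ZNF281, ZNF234, ZNF384 and ZNF562, and 0 of the 11 had both P1 arrays above both P3 arrays. In control and knockdown cells in turn, its median deviations were -0.31 and -0.41 on P1, 0.20 and 0.08 on P3, -0.26 and -0.40 on P2, 0.35 and 0.52 on P4, and 0.12 and -0.18 on P5. Its median pool difference was 0.07.

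A group of 13 was lowest on the knockdown polysomal P2 array, with a median deviation of -1.13. Its medians were also high on the P4 arrays (0.64 and 0.56) and lower on the P5 arrays (-0.25 and -0.40). It held ZNF674, ZNF430, ZNF549, ZNF14, ZNF394, ZNF486, ZNF682, ZNF738, ZNF652, ZNF69, ZNF483, ZNF577 and ZNF786, of which 10 had a mean of 10.0 or above. In the P2 pair all 13 were lower in the knockdown, with a median of -0.90 and a range from -2.25 to -0.17. ZNF14, a KRAB gene, read 12.03, 11.71 and 10.93 in control and 9.97, 11.78 and 10.83 in knockdown polysomal RNA. ZNF549 read 11.69, 12.17 and 10.80 in control and 9.56, 12.02 and 10.28 in knockdown polysomal RNA, so the knockdown P5 array was low beside the P2 one. In the P1 pair the group's median was 0.49 in the other direction. Of 9 of these genes with a second probe, 8 had one more than 1 log2 unit dimmer, and whether the bright probes read other transcripts was not tested.

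Several of the extremes are neighbours in the genome. On chromosome 19 the members ZNF579, ZNF524, ZNF784, ZNF581 and ZNF580 follow each other with at most 3 other coding genes between neighbours, and differed between pools by 0.03, -1.06, 0.12, -0.89 and -0.89. On chromosome 7 the run ZNF786, ZNF398, ZNF282, ZNF212, ZNF777, ZNF746 and ZNF467 held 4 higher and 3 lower members, from -0.91 to 0.55. A run of 7 on chromosome 19 from ZNF627 to ZNF20, with ZNF69 and ZNF700 in it, had 7 of 7 higher in polysomal RNA, from 0.04 to 0.77. The longest run, 9 members on chromosome 19 from ZNF577 to ZNF480, held 6 higher and 3 lower, from -0.29 to 0.4. Over all members, 38 of 59 neighbouring pairs at most 3 coding genes apart had the same sign, and 38 of 79 pairs farther apart. Some of these signs rest on differences as small as 0.01, and neighbouring pairs of other genes were not compared.

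The partners of the KRAB domain were compared in the same fit. Of 34 measured genes of KRAB corepressors and heterochromatin, 28 read higher in polysomal RNA, against 52.8% of all probes. Their median was 0.14, and none was called. Some of the 34 read near background, with differences as small as 0.01. Of the 25 at the level of 8.0, 20 read higher, against 61.4% of all other named genes at that level. The median of these 25 was 0.30, against 0.14 over those other genes. TRIM28 itself differed by 0.05 (SE 0.62, adjusted p = 0.984). Its arrays were low on P1 (8.43 and 8.26) and P2 (8.19 and 8.18) and between 9.46 and 10.44 elsewhere, the reverse of most ZNF members. The list held both directions. TRIM33 and RBBP4 read higher on P1 than on P3, as most members did, while CBX3 and MTA1 read lower, like TRIM28. SETDB1 differed by -0.01 (SE 0.19, adjusted p = 0.992), and CBX1, a heterochromatin protein, by 1.15 (SE 0.20, adjusted p = 0.0551). The knockdown comparisons called none of the 34, with medians of 0.04 in polysomal and 0.02 in subpolysomal RNA.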

How the data were processed

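The deposited probe intensity values of the authors' table (47323 probes, linear scale) were used. Per the submitters' processing notes R 2.15 was used; the normalization behind them is not given in the sources. A second table holds 20 columns whose headings match no sample, and these were not used. The log2 of the deposited intensities was quantile-normalized over all arrays. Values below an array's mode were mirrored to model its background, and a probe past the 0.05 upper tail of that model counted as above it. The 26486 probes (56%) that did so on 2 or more arrays were tested. Shares of all probes are over these, of which 11434 were above background on all arrays. The number of arrays limits the precision.

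The 10 arrays entered a limma 3.58.1 model (R 4.3.3) with a mean for each of the 4 groups, with Benjamini-Hochberg adjustment over all tested probes, two-sided, and a probe was called at an adjusted p under 0.05. All adjusted p-values come from it unless an alternative is named. The script was tested on simulated data. Residuals of arrays that share a number correlated between hairpins by 0.917 (P1 and P3), 0.763 (P2), 0.769 (P4) and 0.467 (P5). The P1 and P3 values are the same result, because the residuals of 2 arrays in a group mirror each other. The P2, P4 and P5 values are not independent either, and arrays of unlike numbers were not compared. A fit with the number as a random block is given where it changes a call.

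The members and gene lists were chosen with earlier results of these data known. Named were called members, the 10 brightest, the 8 lowest and 8 highest pool differences among members above background on all arrays, the 3 smallest p-values each way in the knockdown comparisons, the genes beside the level of 8.0, and called genes of the 10 lists; other genes named in the text were picked after their values were seen. Alternatives were other scalings, filters, priors, arrays, probes and a level of 8.5. Protein features of the members (zinc finger and KRAB patterns) were not analysed here. Start-site sequences and gene order come from RefSeq, GRCh38.p14.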

Additional observations from a re-analysis of the deposited data

Results flagged for a closer look

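In 16 of the 159 members the knockdown array lay on one side of its control in every polysomal pair and on the other side in every subpolysomal pair, and limma called the change of the pool difference in none of them (adjusted p = 1). The 8 that read higher in the knockdown in polysomal RNA make 5.03% of the members, against 3.95% of all probes, and the 8 that read lower there 5.03%, against 3.45%. Upwards, the change was 0.30 for ZNF181, 0.44 for ZNF282, 0.62 for ZNF35, 0.11 for ZNF398, 0.37 for ZNF408, 0.34 for ZNF45, 0.35 for ZNF791 and 0.28 for ZNF841. Downwards, it was -0.74 for ZNF330, -0.66 for ZNF430, -0.91 for ZNF486, -0.30 for ZNF557, -1.01 for ZNF652, -1.0 for ZNF682, -0.31 for ZNF773 and -0.28 for ZNF786. Of these, ZNF430, ZNF486, ZNF652, ZNF682 and ZNF786 belong to the group of 13 that was lowest on the knockdown polysomal P2 array. No group holds the 4 arrays needed to look for a single array far from the others.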

How the results depend on the processing

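The groups hold 2 or 3 arrays, and the P number moved the members more than pool or hairpin. The control comparison called 0 members in place of 1 with no filter on dim probes, with probes above background on all arrays alone, with the compared arrays alone, with a trended and robust prior, with the replicate block, without the P2 arrays and without the P1 and P2 arrays, and 0 to 1 when 1 array was left out. The mean of both hairpins called 3 members among probes above background on all arrays (ZNF358, ZNF524 and ZNF580) and 3 without P2 (ZNF358, ZNF277 and ZNF331), but 0 with the replicate block and 0 without P1 and P2. Leaving out P2, or P1 and P2, was a choice added after seeing the data. The members' median in knockdown cells ranged from -0.33 to 0.28 when 1 array was left out. Leaving 1 array out gave -0.01 to 0.25 for ZNF557, -0.02 to 0.19 for ZNF784 and -0.46 to 0.02 for ZNF707 (knockdown minus control, subpolysomal RNA), and the cause was not tested. Of the values of single named members under the alternatives, 655 kept direction and side of the threshold, 17 ended a call of ZNF358, and 3 added a call (ZNF524, ZNF580 and ZNF277). The block changed no other call of a member. Over all probes, the calls for the mean of both hairpins (307) were 49 with the block, 115 with the trended prior, 166 without P2, 0 without P1 and P2, and 111 to 287 when 1 array was left out. Those in control cells (34) ranged from 0 to 23 and those in knockdown cells (42) from 0 to 40 over the alternatives.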

Other observations

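Lists of other, mostly C2H2, genes grouped by symbol were compared in the same fit, in polysomal minus subpolysomal RNA averaged over both hairpins. SP100, SP110 and SP140 in the KLF and SP list and ZFP36 in the ZFP list are not C2H2 genes. Of 33 measured ZBTB genes, which join zinc fingers to a BTB domain, 2 were called and both were lower in polysomal RNA. ZBTB44 differed by -1.03 (SE 0.13, limma adjusted p = 0.0175, and 0.0569 with the P number as a block) and ZBTB5 by -0.44 (SE 0.07, adjusted p = 0.0482, and 0.162 with the block). ZBTB44 read 9.00 to 9.66 on the subpolysomal and 8.19 to 8.45 on the polysomal arrays. Of 15 ZSCAN and ZKSCAN, 13 ZFP and 21 KLF and SP genes none was called, with medians of 0.02, 0.02 and 0.03. Of the lists that check the pools and the cells, noncoding RNAs had a median of -1.15 with 13 of 13 lower. Some of the 13 read near background, with differences as small as -0.01. Over the 8 at the level of 8.0 the median was -2.04. The 3 called were OIP5-AS1 (-2.03, SE 0.15, limma adjusted p = 0.00343, and 0.0114 with the block), EPB41L4A-AS1 (-2.64, SE 0.27, adjusted p = 0.011, and 0.0581 with the block) and SNHG5 (-2.45, SE 0.39, adjusted p = 0.0423, and 0.0864 with the block). Of 10 erythroid genes 1 was called, the fetal globin HBG1, with a difference of 0.34 (SE 0.06, adjusted p = 0.0448, and 0.348 with the block). HBG1 reached 14.48, the top of the normalized scale, which limits its size there, and on log2 deposited values its difference was -0.21 (adjusted p = 0.943). The erythroid list's median was 0.12. Without the P1 and P2 arrays, a choice made after seeing the data, none of these 6 genes was called (adjusted p 0.0812 to 0.22). The megakaryocyte, monocyte and granulocyte, and lymphoid markers had 0 calls and medians of 0.10, 0.03 and -0.00. No list had a called gene in the knockdown comparisons.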
